A study of Mus musculus with 9 samples.

Results

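The PGC-1 coactivators and the transcription factors of mitochondrial biogenesis are followed here through the tibialis anterior (TA), a shin muscle of mostly fast fibres, of mice with altered Svil. The 10 genes are the coactivators Ppargc1a, Ppargc1b and Pprc1, the receptors Esrra, Esrrb and Esrrg, the muscle regulator Perm1, and the factors Nrf1, Gabpa and Tfam. They were taken by symbol from the 56805 genes of the deposited table, and each symbol had 1 row. RNA came from the left TA of male mice 13 months old, 3 labelled Svil-KO, 3 labelled Svil-Mut and 3 wild type (WT), with 1 library each. Svil encodes supervillin, which binds actin and myosin under the muscle membrane. Neither the kind of lesion in Svil-KO and Svil-Mut nor the genetic background of the strains is given in the labels. No treatment is labelled.

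PGC-1 coactivators bind no DNA themselves. They are recruited to promoters by transcription factors, among them the estrogen-related receptors (ERR) and the nuclear respiratory factors NRF1 and GABP, and raise the transcription of genes for oxidative phosphorylation and fatty acid oxidation. Through NRF1 and GABP they also act on Tfam, whose product enters mitochondria, packages mitochondrial DNA and starts its transcription. In skeletal muscle this network is known for its response to endurance exercise and for its higher activity in oxidative than in glycolytic fibres.

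None of the 10 genes passed the test in any comparison. A normalized count is the read count divided by the library's size factor, and a gene was called changed at an adjusted p under 0.05 (limma on log2(normalized count + 1), Benjamini-Hochberg over 15279 genes). All 10 genes were among the 15279, which reached a normalized count of 10 in at least 3 libraries. In Svil-KO against WT limma called 0% of all genes, in Svil-Mut against WT 0.0393% and in Svil-KO against Svil-Mut 0.0458%, so a count of 0 among 10 genes lies near the background. EdgeR and DESeq2 on the recovered reads also called 0 of the 10 in each comparison. Of all genes, edgeR called 0%, 0.0393% and 0.0458% in the comparisons in this order, and DESeq2 0.0262%, 1.13% and 1.54%. At an unadjusted p under 0.05, Gabpa was higher in Svil-KO than in WT, 1 of 10 genes where 4.11% of all genes had such a p in either direction. Esrra and Esrrg were lower in Svil-Mut than in WT, 2 of 10 genes, beside 10% of all genes. Esrra, Esrrg, Perm1 and Gabpa were higher in Svil-KO than in Svil-Mut, 4 of 10 genes, beside 10.2% of all genes. The median log2 fold change of the 10 genes was 0.05 in Svil-KO against WT, -0.17 in Svil-Mut against WT and 0.27 in Svil-KO against Svil-Mut, with medians of 0.0031, -0.0046 and 0.0089 over all tested genes. The comparisons share libraries, so they are not independent of each other.

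**Figure D1:**
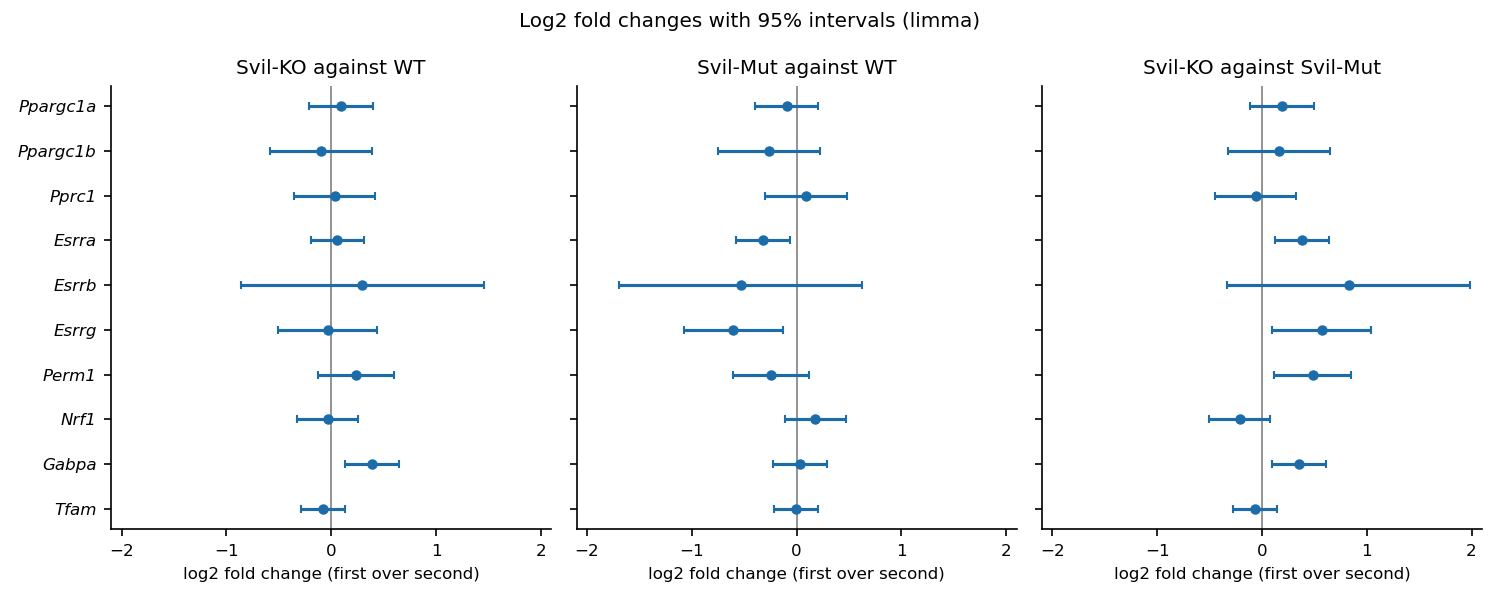
Log2 fold change of each of the 10 genes (first genotype over second, points) with its 95% interval (bars) from limma, with 1 panel per comparison. The intervals of Gabpa in Svil-KO against WT, of Esrra and Esrrg in Svil-Mut against WT, and of Esrra, Esrrg, Perm1 and Gabpa in Svil-KO against Svil-Mut do not include 0, and the interval of Esrrb is the widest of the 10 in each panel.

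The libraries held 36234428 to 48762188 reads, with 19282 to 19988 genes detected. Pearson's r between libraries was 0.940 to 0.960 on the log2 scale. Svil had a normalized count of 6934 ± 407 in Svil-KO, 4379 ± 381 in Svil-Mut and 8822 ± 497 in WT (SD, n = 3 each), so the libraries labelled Svil-KO kept most of the transcript. The 6 skeletal muscle markers, such as Acta1, Ckm and Tnnt3, summed to 3801138 to 4358019 normalized counts in Svil-KO, 4644136 to 4854934 in Svil-Mut and 3952898 to 4157741 in WT. Ucp1, which defines brown adipocytes, a cell type known for high Ppargc1a, was at 0 in all 9 libraries. In whole muscle, fewer cells of a type and less RNA per cell cannot be told apart.

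The summed slow or oxidative fibre markers of Svil-Mut, mostly Myh2, did not overlap those of either other genotype, while single markers such as Myh7 did. The 9 slow or oxidative fibre markers, most abundant among them the fast oxidative myosin Myh2, summed to 34717 to 68817 normalized counts in Svil-KO, 6872 to 33215 in Svil-Mut and 39086 to 58525 in WT. All 9 had negative log2 fold changes in Svil-Mut against WT and positive ones in Svil-KO against Svil-Mut, and none passed the test (2 and 4 of them had an unadjusted p under 0.05). The lowest of these sums was that of Svil-Mut replicate 2. Myh2 itself did not overlap either, but Myh7 had 14.3 to 174 normalized counts in Svil-Mut and 79.9 to 333 in WT. Casq2 was highest of all libraries in Svil-Mut replicate 4, at 4030. As a median over the 9 markers of the log2 difference from the WT mean, Svil-Mut replicate 4 (-0.181) lay within the Svil-KO range, just above Svil-KO replicate 3 (-0.184), and below all WT libraries. Svil-KO replicate 1 stood apart at 1.80, with Svil-KO replicate 4 at -0.109. It was the highest of all libraries for every slow or oxidative marker except Myh2 and Casq2. Its Myh7 was 2476 normalized counts, against 147 and 53.4 in Svil-KO replicates 3 and 4. The 6 red blood cell markers summed to 2635 to 6208 in Svil-KO, 6559 to 49363 in Svil-Mut and 4431 to 8147 in WT, with the highest sum in Svil-Mut replicate 4, and 5 of the 6 had a positive change at an unadjusted p under 0.05 in Svil-Mut against WT. The 6 adipocyte markers summed to 8346 to 9560 in Svil-KO, 6974 to 10247 in Svil-Mut and 9463 to 11249 in WT, sums that are mostly Fabp4. By gene, 4 of the 6 were lower in Svil-Mut than in WT at an unadjusted p under 0.05 (median log2 fold change -2.20), and all 6 had negative values in Svil-KO against WT (median -1.28, 0 with such a p). None of the 6 passed the test. Over all genes, 10% had an unadjusted p under 0.05 in Svil-Mut against WT, 10.2% in Svil-KO against Svil-Mut and 4.11% in Svil-KO against WT. The 5 fast glycolytic fibre markers, led by Myh4, summed to 2743821 to 3285244 in Svil-KO, 3134608 to 3772002 in Svil-Mut and 2630108 to 3006257 in WT. The sums of brown adipocyte, endothelial, macrophage, fibro-adipogenic, nerve and satellite cell markers overlapped between all genotypes. The satellite cell sum was mostly Cdh15. Calcr, of low level, had 0 normalized counts in Svil-Mut, 0 to 2.4 in Svil-KO and 12.2 to 49.2 in WT. Of the 4 satellite cell markers, 2 were negative and 2 positive in each comparison with WT. All 5 fibro-adipogenic markers were negative in Svil-Mut against WT, 0 with an unadjusted p under 0.05. Transcripts of the mitochondrial genome took 5.87% to 6.56% of the reads in Svil-KO, 3.93% to 5.03% in Svil-Mut and 5.32% to 6.51% in WT. The part of these differences in the values that follow was not tested.

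Per length of annotated exon, the 10 genes spanned a wide range of levels. Perm1 was the most abundant, with a mean of 3510 normalized counts per kb over the 9 libraries (range 2344 to 4456). Esrra followed with 786 (558 to 906), Tfam with 434 (389 to 472) and Ppargc1a with 305 (253 to 372). These 4 genes did not overlap each other in any of the 9 libraries. Ppargc1b came next with 239 (157 to 333) and Gabpa with 219 (181 to 280), and the ranges of Ppargc1a, Ppargc1b and Gabpa overlapped. Esrrg had 134 (72.0 to 180) and Pprc1 103 (86.0 to 133), which overlapped each other. Nrf1 had 58.9 (47.9 to 65.0) and Esrrb 14.4 (6.4 to 30.1), both clear of their neighbours in this order. Esrra was thus the most abundant of the 3 ERR genes per length, and Ppargc1a and Ppargc1b were each above Pprc1 in every library. The exon length counts every annotated exon, used in muscle or not, so genes with unused exons are understated.

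**Figure D2:**
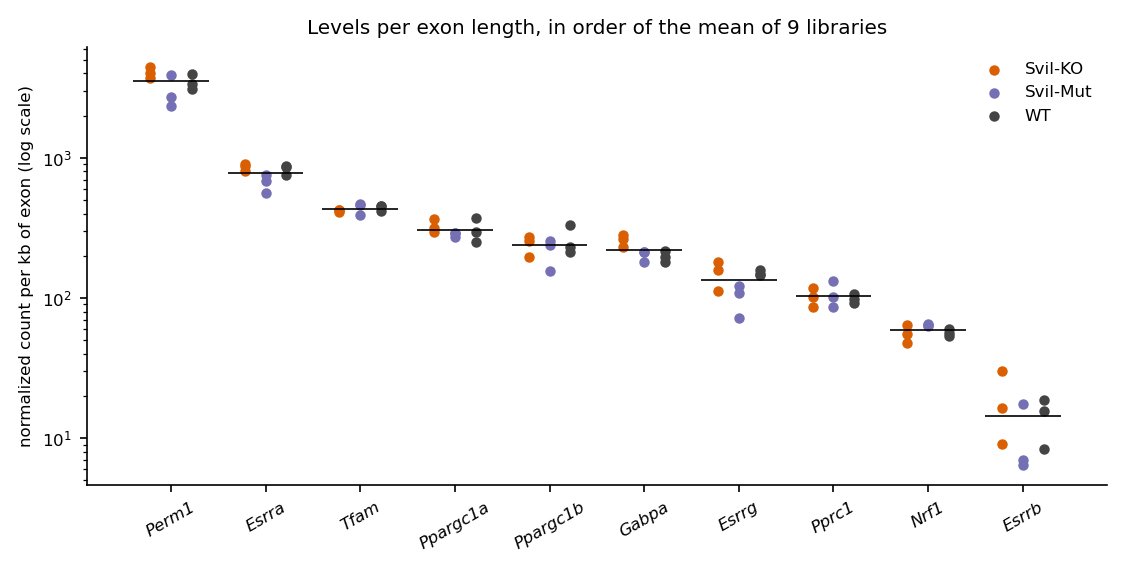
Normalized count per kb of exon (log scale) of the 10 genes in each of the 9 libraries (points, coloured by genotype), ordered by the mean of the 9 libraries (line). Perm1 lies highest, at 2344 to 4456, and Esrrb lowest, at 6.4 to 30.1, and in Esrra the Svil-KO points lie above the Svil-Mut points.

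Among the coactivators, Ppargc1a (ENSMUSG00000029167.13, GRCm38 chromosome 5, 51454250 to 51567726, minus strand) encodes PGC-1 alpha, the member of the family most studied in exercised muscle. Its normalized count was 1944, 2409 and 2072 in Svil-KO replicates 1, 3 and 4. In Svil-Mut replicates 1, 2 and 4 it was 1920, 1910 and 1786. In WT replicates 1, 3 and 4 it was 1667, 1953 and 2453. The WT libraries thus held both the lowest and the highest of the 9 values, and the Svil-Mut libraries lay closest together (SD 74.6). The log2 fold change was 0.09 ± 0.14 (SE) in Svil-KO against WT (limma adjusted p = 0.997) and -0.10 ± 0.14 in Svil-Mut against WT (limma adjusted p = 0.877). The 95% interval of the ratio was 0.865 to 1.32 for Svil-KO over WT and 0.759 to 1.16 for Svil-Mut over WT. In Svil-KO against Svil-Mut it was 0.19 ± 0.14, with all Svil-KO libraries above all Svil-Mut libraries (limma adjusted p = 0.692), where 15.2% of all genes had no overlap between these genotypes.

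Ppargc1b (ENSMUSG00000033871.14, GRCm38 chromosome 18, 61298136 to 61400431, minus strand) encodes PGC-1 beta, the close relative of PGC-1 alpha, and carries the microRNA gene Mir378a outside its exons. Its normalized count was 1022, 1082 and 778 in Svil-KO, 1016, 958 and 625 in Svil-Mut, and 1329, 857 and 925 in WT, in order of replicate number. All 3 genotypes overlapped. The log2 fold change was -0.10 ± 0.22 (SE) in Svil-KO against WT, -0.26 ± 0.22 in Svil-Mut against WT and 0.17 ± 0.22 in Svil-KO against Svil-Mut (limma adjusted p 0.747 to 0.997). Pprc1 (ENSMUSG00000055491.14, GRCm38 chromosome 19, 46044886 to 46072915, plus strand) encodes the PGC-1-related coactivator, which is known to be induced when cells enter the cell cycle. It had 644, 740 and 541 normalized counts in Svil-KO, 643, 835 and 540 in Svil-Mut, and 619, 668 and 582 in WT, and the WT range lay inside that of each other genotype. Its log2 fold change was 0.03 ± 0.18 (SE) in Svil-KO against WT and 0.09 ± 0.18 in Svil-Mut against WT (limma adjusted p = 0.997 and 0.914).

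**Figure D3:**
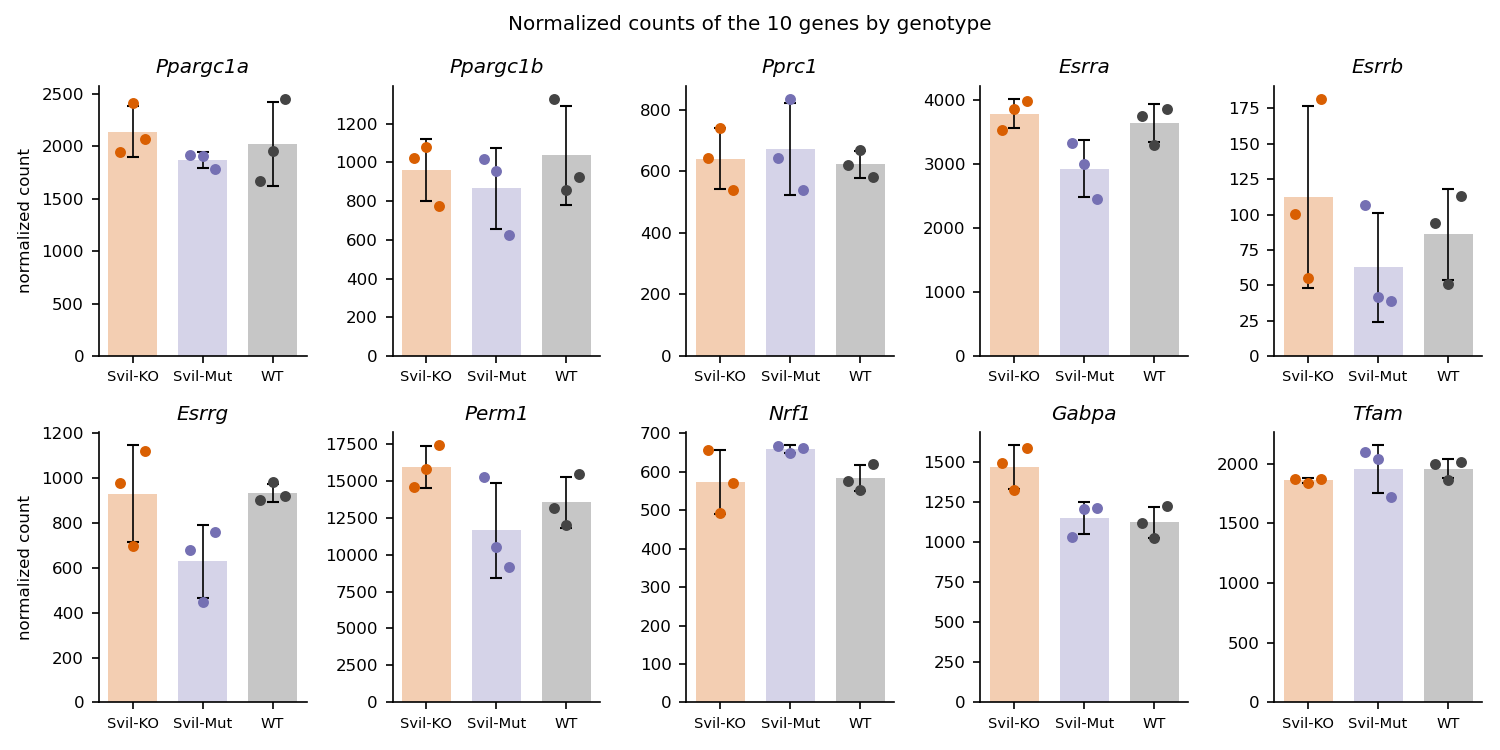
Normalized count of each of the 10 genes in Svil-KO, Svil-Mut and WT (points are libraries, bars are means, error bars are SD, n = 3). In Gabpa the 3 Svil-KO points lie above all others, in Esrrg the 3 Svil-Mut points lie below the WT points, and in Tfam the 3 genotypes lie between 1725 and 2095.

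The ERR genes encode orphan nuclear receptors that bind the same short DNA core and take PGC-1 proteins as coactivators. Esrra (ENSMUSG00000024955.14, GRCm38 chromosome 19, 6910977 to 6921813, minus strand) had 3530, 3850 and 3976 normalized counts in Svil-KO replicates 1, 3 and 4. It had 3326, 2997 and 2447 in Svil-Mut replicates 1, 2 and 4, and 3746, 3301 and 3861 in WT replicates 1, 3 and 4. The Svil-Mut libraries lay below every Svil-KO library, where 15.2% of all genes had no overlap between these genotypes. The highest Svil-Mut library lay just above the lowest WT library. Svil-Mut had 80.4% of the WT mean (log2 fold change -0.32 ± 0.12 SE, unadjusted p = 0.0184, limma adjusted p = 0.402). The Svil-KO mean was 104% of the WT mean (log2 fold change 0.06 ± 0.12, limma adjusted p = 0.997) and 129% of the Svil-Mut mean (0.38 ± 0.12, limma unadjusted p = 0.0075, adjusted p = 0.324). The 2-sided exact permutation p for Svil-KO against Svil-Mut was 0.1, the smallest that 3 against 3 libraries allow.

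Esrrg (ENSMUSG00000026610.13, GRCm38 chromosome 1, 187608791 to 188214885, plus strand) encodes the ERR known for its enrichment in oxidative fibres. Its normalized count was 976, 695 and 1119 in Svil-KO, 679, 447 and 762 in Svil-Mut, and 904, 980 and 920 in WT, in order of replicate number. Every Svil-Mut library lay below every WT library, where 13.9% of all genes had no overlap between these genotypes, and the lowest was Svil-Mut replicate 2. Svil-Mut had 67.3% of the WT mean (log2 fold change -0.61 ± 0.21 SE, 95% interval of the ratio 0.474 to 0.911, limma adjusted p = 0.398). In Svil-KO against WT the log2 fold change was -0.03 ± 0.21 (limma adjusted p = 0.997), and in Svil-KO against Svil-Mut it was 0.57 ± 0.21 (limma adjusted p = 0.414). Esrrb (ENSMUSG00000021255.17, GRCm38 chromosome 12, 86361117 to 86521628, plus strand), best known from stem cells, was the least abundant. It had 100, 55.0 and 182 normalized counts in Svil-KO, 107, 42.0 and 38.8 in Svil-Mut, and 94.1, 50.6 and 113 in WT. Its spread within genotypes was 0.76 on the log2 scale, against a median of 0.28 over all tested genes, so that its ratio of Svil-Mut over WT had a 95% interval of 0.309 to 1.54.

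Perm1 (ENSMUSG00000078486.3, GRCm38 chromosome 4, 156215868 to 156221307, plus strand) encodes a regulator of striated muscle that is known to be induced by PGC-1 and ERR proteins and to act on their targets. It had 14570, 15774 and 17384 normalized counts in Svil-KO, 15229, 10520 and 9145 in Svil-Mut, and 13162, 12029 and 15427 in WT, in order of replicate number. Svil-Mut replicate 1 lay within the range of the other genotypes, while Svil-Mut replicates 2 and 4 were below all the others. The log2 fold change was 0.24 ± 0.17 (SE) in Svil-KO against WT (limma adjusted p = 0.997), -0.25 ± 0.17 in Svil-Mut against WT (limma adjusted p = 0.668) and 0.48 ± 0.17 in Svil-KO against Svil-Mut (limma adjusted p = 0.371). Without Svil-Mut replicate 1 the values of Perm1 were -0.46 in Svil-Mut against WT (limma adjusted p = 0.216) and 0.69 in Svil-KO against Svil-Mut (limma adjusted p = 0.0764). Without Svil-Mut replicate 4 they were -0.09 and 0.33 (limma adjusted p = 0.901 and 0.523).

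Promoter sequence is shown for Perm1, Esrra and Tfam, which carry a recognition motif of another factor of this network. RefSeq promoter windows of the GRCm38.p6 build, 250 bases before each start, were found for 9 of the 10 genes (14 windows). Both strands were searched for AAGGTCA (the ERR core), GCATGCGC (an NRF1 core), CCGGAAGT (a GABP and ETS core), TGACGTCA (the cyclic AMP response element) and TATTTATA (a MEF2 core). Of the 9 genes, 5 held a match. The Perm1 window held an ERR core, read as TGACCTT on the strand of the gene, 202 to 196 bases before the RefSeq start, and 4.079% of 32851 promoter windows held this motif. The Esrra window held an NRF1 core 34 to 27 bases before its RefSeq start, a motif in 2.256% of windows. The Tfam window held a GABP and ETS core 47 to 40 bases before the RefSeq start, within an exon of the GENCODE annotation, a motif in 2.877% of windows. Windows of Esrrg and Nrf1 held a MEF2 core (1.562% of windows), and the cyclic AMP response element (1.546%) was in none of the 14. A match is a description of these letters and not a measured binding site. These 3 sequences are given 5′ to 3′ on the strand of the gene, with the match in capitals, the Perm1 and Esrra windows up to the first annotated exon base and the Tfam site with 8 bases on each side. They lie at chr4:156215677-156215867 (plus strand), chr19:6921814-6922058 (minus strand) and chr10:71238076-71238099 (minus strand).
Perm1: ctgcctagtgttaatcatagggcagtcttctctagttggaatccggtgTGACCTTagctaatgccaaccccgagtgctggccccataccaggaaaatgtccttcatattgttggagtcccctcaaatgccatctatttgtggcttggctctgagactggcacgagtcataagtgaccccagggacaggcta
Esrra: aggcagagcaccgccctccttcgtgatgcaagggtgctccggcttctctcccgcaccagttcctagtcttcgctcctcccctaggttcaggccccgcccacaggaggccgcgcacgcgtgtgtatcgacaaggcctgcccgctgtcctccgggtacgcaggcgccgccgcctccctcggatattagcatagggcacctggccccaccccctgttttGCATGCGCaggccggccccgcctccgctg
Tfam: gccgcggaCCGGAAGTccgggctt

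Of the respiratory factors, Gabpa (ENSMUSG00000008976.16, GRCm38 chromosome 16, 84834925 to 84863779, plus strand) encodes the DNA-binding subunit of GABP, the factor also called NRF-2. It had 1497, 1324 and 1590 normalized counts in Svil-KO replicates 1, 3 and 4. In Svil-Mut replicates 1, 2 and 4 it had 1033, 1205 and 1213, and in WT replicates 1, 3 and 4 it had 1119, 1028 and 1224. Every Svil-KO library lay above every library of the other genotypes, while Svil-Mut and WT overlapped throughout. Of all genes, 10.7% had no overlap between Svil-KO and WT and 15.2% none between Svil-KO and Svil-Mut. Svil-KO had 131% of the WT mean (log2 fold change 0.39 ± 0.12 SE, 95% interval of the ratio 1.10 to 1.56, limma unadjusted p = 0.0068, adjusted p = 0.997). It had 128% of the Svil-Mut mean (0.35 ± 0.12, limma adjusted p = 0.359). The log2 fold change in Svil-Mut against WT was 0.03 ± 0.12 (limma adjusted p = 0.957). Both comparisons of Svil-KO had an exact permutation p of 0.1 (2-sided), the smallest possible.

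The libraries were made with a kit that does not mark strand, and Gabpa shares 397 exon bases (6.98% of its exon length) with Atp5j, a subunit of ATP synthase on the opposite strand. Reads from the shared bases cannot be told apart. Atp5j was far more abundant, at 31843 ± 1045 normalized counts in Svil-KO, 28178 ± 2973 in Svil-Mut and 32880 ± 2473 in WT (SD, n = 3 each). Its log2 fold change was -0.04 in Svil-KO against WT and 0.18 in Svil-KO against Svil-Mut. How the submitters counted shared bases is not given in the sources used here, so the value of Gabpa is uncertain to that extent. Esrra shares 73 exon bases (1.66%) with Trmt112 and Pprc1 177 (2.82%) with Ldb1. The partner means were 371, 436 and 481 normalized counts (Trmt112) and 373, 452 and 451 (Ldb1) in Svil-KO, Svil-Mut and WT.

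Nrf1 (ENSMUSG00000058440.14, GRCm38 chromosome 6, 30047988 to 30153458, plus strand) encodes nuclear respiratory factor 1, an activator of respiratory chain genes and of Tfam. It had 657, 492 and 571 normalized counts in Svil-KO, 668, 649 and 660 in Svil-Mut, and 575, 553 and 619 in WT, in order of replicate number. The Svil-Mut libraries lay close together (SD 9.4) and above all WT libraries, where 13.9% of all genes had no overlap between these genotypes. Of the Svil-Mut libraries, 2 were also above the highest Svil-KO library. The log2 fold change was -0.03 ± 0.13 (SE) in Svil-KO against WT (limma adjusted p = 0.997), 0.18 ± 0.13 in Svil-Mut against WT (limma adjusted p = 0.705) and -0.21 ± 0.13 in Svil-KO against Svil-Mut (limma adjusted p = 0.627).

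Tfam (ENSMUSG00000003923.14, GRCm38 chromosome 10, 71225464 to 71238280, minus strand) varied least within genotypes, with a spread of 0.095 on the log2 scale. It had 1874, 1835 and 1872 normalized counts in Svil-KO, 2095, 2041 and 1725 in Svil-Mut, and 2000, 1867 and 2012 in WT. Svil-Mut replicate 4 was the lowest of the 9 libraries and Svil-Mut replicate 1 the highest. The 95% interval of the ratio was 0.822 to 1.10 for Svil-KO over WT, 0.860 to 1.15 for Svil-Mut over WT and 0.827 to 1.11 for Svil-KO over Svil-Mut (limma adjusted p = 0.997, 0.986 and 0.872). The data thus bound a change of Tfam more tightly than one of any other of the 10 genes.

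Genes on which this network is reported to act in muscle, among them those of myoglobin, fatty acid oxidation and the respiratory chain, had lower means in Svil-Mut than in either other genotype for most members, and none passed the limma test in any comparison. The list held 30 reported PGC-1 alpha and ERR targets, of which 29 were tested. It was chosen with earlier results of these data known, so its counts beside those of all genes are a description. In Svil-Mut against WT, 25 of the 29 had negative log2 fold changes and 16 of them an unadjusted p under 0.05, with a list median of -0.24. All tested genes had a median near 0 there and 10% of them such a p. In Svil-KO against Svil-Mut, 28 of the 29 were positive and 22 had an unadjusted p under 0.05, with a median of 0.28. Of all genes, 10.2% had such a p there. In Svil-KO against WT, 22 were positive, with a median of 0.04. Only 1, the mitochondrial fusion gene Mfn2 (0.19), had an unadjusted p under 0.05, beside 4.11% of all genes. The WT and Svil-Mut libraries are shared between these comparisons. Many of the listed genes are themselves more abundant in oxidative fibres, whose summed markers were lower in the Svil-Mut libraries, and the part of this was not tested.

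The count of targets with an unadjusted p under 0.05 depended on single libraries, while their direction mostly held. With any 1 library left out, 25 of the 29 were negative in Svil-Mut against WT, or 27 without WT replicate 3. In Svil-KO against Svil-Mut, 27 or 28 were positive. Leaving out a library of the genotype outside a comparison cannot move its fold changes, so those fits do not test the direction. In Svil-Mut against WT it was 8 without WT replicate 4, 21 when Svil-Mut replicate 1 was left out and 9 when Svil-Mut replicate 4 was, all with lower values in Svil-Mut. Without WT replicate 1 there were 10 lower and 1 higher. In Svil-KO against Svil-Mut it was 14 without Svil-KO replicate 4. EdgeR called 0 targets in each comparison, while DESeq2 called Mb and Ckmt2 in Svil-Mut against WT and Mb, Ckmt2, Acadvl and Cd36 in Svil-KO against Svil-Mut. Of all genes, DESeq2 called 1.13% and 1.54% in these comparisons. Without Svil-Mut replicate 1, limma also called Mb and Ckmt2 in Svil-Mut against WT and Ckmt2 in Svil-KO against Svil-Mut. The ranges of all genes called with 1 library left out are given at the end.

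Mb, myoglobin, the oxygen store of oxidative fibres, averaged 90032 ± 17876 normalized counts in Svil-KO, 44998 ± 13300 in Svil-Mut and 92426 ± 16944 in WT (SD, n = 3 each). Its log2 fold change was -1.06 ± 0.21 (SE) in Svil-Mut against WT (limma adjusted p = 0.164) and 1.02 ± 0.21 in Svil-KO against Svil-Mut (limma adjusted p = 0.152). Pdk4, the kinase that restrains pyruvate dehydrogenase when fat is burned, averaged 9150 ± 2885 in Svil-Mut and 36483 ± 17861 in WT (log2 fold change -1.91 ± 0.47 SE, limma adjusted p = 0.279). Ckmt2, the mitochondrial creatine kinase of muscle, averaged 90680 ± 3235 in Svil-KO, 60796 ± 14878 in Svil-Mut and 86606 ± 6546 in WT. Acadvl, which opens the oxidation of very long fatty acids, averaged 14142 ± 1724 in Svil-KO, 9825 ± 1835 in Svil-Mut and 13630 ± 1412 in WT. Sod2, the superoxide dismutase of the matrix, averaged 15638 ± 353 in Svil-KO and 12478 ± 1628 in Svil-Mut (log2 fold change 0.33 ± 0.094 SE, limma adjusted p = 0.303). For Mb, Ckmt2 and Acadvl, the Svil-KO and WT means lay closer to each other than to the Svil-Mut mean. Genes were named by a small unadjusted p in a comparison, which favours such a pattern, so it is given as a description.

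**Figure D4:**
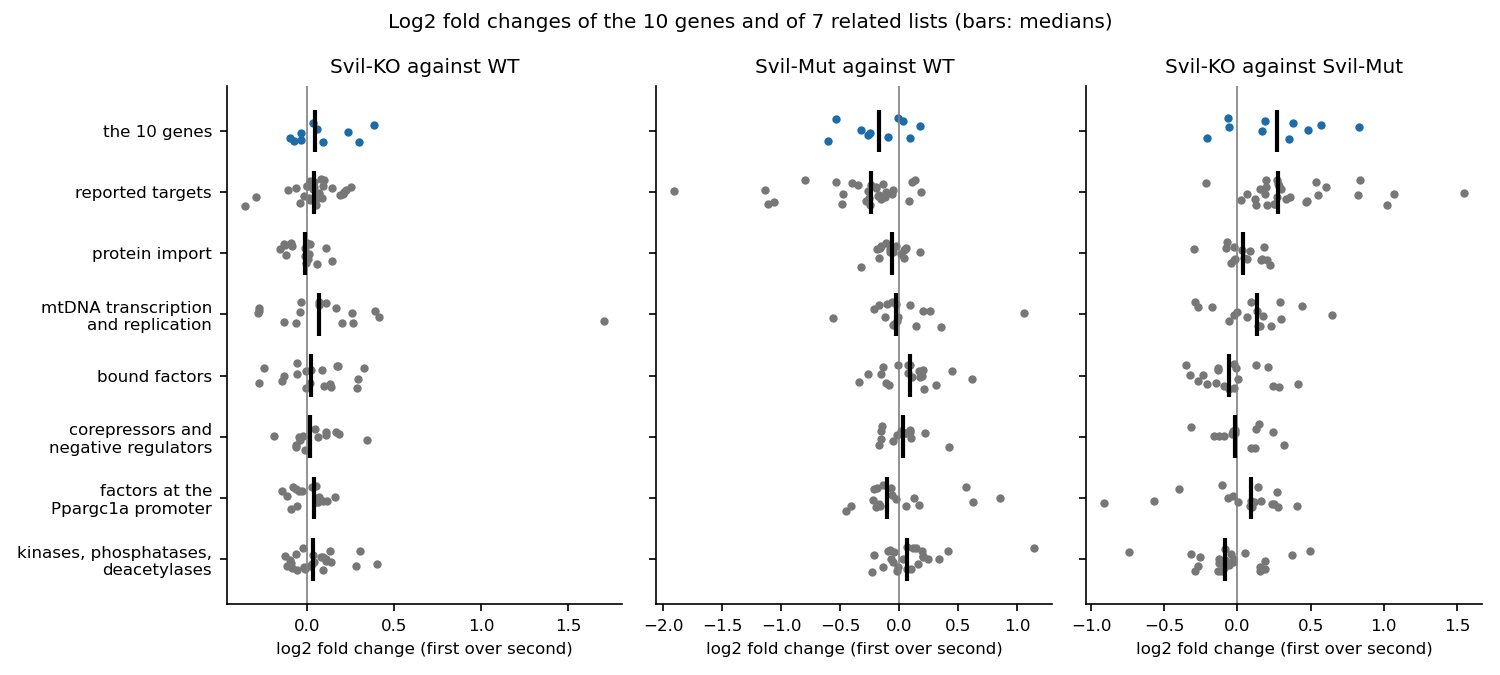
Log2 fold changes (first genotype over second) of the 10 genes (blue) and of the genes of 7 related lists (grey), with the median of each as a vertical bar, in the 3 comparisons. The reported targets have a median of -0.24 in Svil-Mut against WT and 0.28 in Svil-KO against Svil-Mut, while the medians of the other 6 lists lie between -0.11 and 0.13 in all panels.

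The other lists of the pathway held 0 called genes in each comparison by limma. Over all genes, 4.11% had an unadjusted p under 0.05 in Svil-KO against WT, 10% in Svil-Mut against WT and 10.2% in Svil-KO against Svil-Mut. Among 17 tested genes of mitochondrial DNA transcription and replication, in which Tfam's product acts, 1 in each comparison had an unadjusted p under 0.05. In Svil-KO against WT it was Mterf1a, a termination factor of low level, at 29.2 ± 11.2 normalized counts in Svil-KO and 8.0 ± 2.6 in WT. The WT mean of Mterf1a lay below the filter value of 10. In Svil-Mut against WT it was Mgme1, an exonuclease, at 1173 ± 185 in Svil-Mut and 915 ± 131 in WT. In Svil-KO against Svil-Mut it was Lrpprc, which stabilises mitochondrial messages, at 5726 ± 390 in Svil-KO and 4701 ± 821 in Svil-Mut. Polrmt, the mitochondrial RNA polymerase, had log2 fold changes of 0.39 in Svil-KO against WT and 0.44 in Svil-KO against Svil-Mut, and Polg, the DNA polymerase, 0.41 in Svil-KO against WT (limma unadjusted p 0.063 to 0.098). Among 16 genes of mitochondrial protein import, 0, 1 and 2 had an unadjusted p under 0.05 in the comparisons taken in the same order. Chchd4, which imports proteins into the intermembrane space, was at 1161 ± 150 in Svil-Mut and 1451 ± 104 in WT. Its partner oxidase Gfer was at 1744 ± 146 in Svil-KO and 2145 ± 186 in Svil-Mut.

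Upstream of the network, 18 transcription factors and regulators that act on the Ppargc1a promoter were tested. In Svil-Mut against WT, 3 were higher and 2 lower at an unadjusted p under 0.05, beside 10% of all genes in either direction. In Svil-KO against Svil-Mut 3 were higher and 3 lower, beside 10.2% of all genes. In Svil-KO against WT there were 0, beside 4.11% of all genes. Arntl, the clock activator BMAL1, averaged 467 ± 62.0 normalized counts in Svil-KO, 886 ± 181 in Svil-Mut and 493 ± 108 in WT (log2 fold change 0.85 ± 0.20 SE in Svil-Mut against WT, limma adjusted p = 0.266). Nr1d1, the clock repressor REV-ERB alpha, averaged 2966 ± 649 in Svil-KO, 3897 ± 789 in Svil-Mut and 2604 ± 111 in WT. Myod1, the myogenic factor, averaged 1897 ± 199 in Svil-KO, 2863 ± 685 in Svil-Mut and 1830 ± 189 in WT. Mef2c, an activator of Ppargc1a in muscle, averaged 27625 ± 1709 in Svil-KO, 24691 ± 708 in Svil-Mut and 28758 ± 399 in WT (log2 fold change -0.22 ± 0.065 SE in Svil-Mut against WT, limma adjusted p = 0.326). The labels used here give no time of day of collection.

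The next list held 24 tested genes of kinases, phosphatases, deacetylases and related enzymes linked to PGC-1 alpha. In Svil-Mut against WT, 3 had a positive change at an unadjusted p under 0.05, beside 10% of all genes in either direction. They were Prkab1, a subunit of AMP-activated kinase (log2 fold change 0.41 ± 0.13 SE), Prkaca, the catalytic subunit of protein kinase A (0.19 ± 0.070), and Mapk11, a p38 kinase of low level (74.1 ± 4.2 normalized counts in Svil-Mut and 34.3 ± 11.6 in WT), all with limma adjusted p of 0.349 to 0.492. In Svil-KO against Svil-Mut, Ppp3ca, the catalytic subunit of calcineurin (-0.25), Prkab1 (-0.32) and Camk2a, a calcium-dependent kinase (-0.27), had negative log2 fold changes and Sirt3, the mitochondrial deacetylase (0.50), a positive one, with limma adjusted p of 0.412 to 0.461. In Svil-KO against WT none had an unadjusted p under 0.05. Of all genes, 10.2% had such a p in Svil-KO against Svil-Mut and 4.11% in Svil-KO against WT. Among 19 nuclear receptors and other factors bound by PGC-1 proteins, Nfe2l2, the oxidative stress factor, averaged 2118 ± 167 in Svil-KO, 2717 ± 744 in Svil-Mut and 1723 ± 80.6 in WT (log2 fold change 0.62 ± 0.18 SE in Svil-Mut against WT, limma adjusted p = 0.325). The acetyltransferase Crebbp averaged 1692 ± 106 in Svil-KO, 2000 ± 217 in Svil-Mut and 2013 ± 155 in WT. Gabpb1, the partner of the Gabpa product, averaged 276 ± 46.3 in Svil-KO and 352 ± 60.7 in Svil-Mut. Of the 19, 1 was lower in Svil-KO against WT and 1 higher in Svil-Mut against WT at an unadjusted p under 0.05. In Svil-KO against Svil-Mut, 1 was higher and 1 lower at such a p. Among 14 corepressors and negative regulators, Flcn averaged 3473 ± 716 in Svil-Mut and 2591 ± 542 in WT. Mstn, myostatin, the brake on muscle growth, averaged 2716 ± 332 in Svil-KO and 2148 ± 365 in WT (log2 fold change 0.34 ± 0.15 SE, limma adjusted p = 0.997).

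Over the 9 libraries, 10916 genes with a mean normalized count of at least 50 were ranked by Pearson's r of log2 values with 3 of the genes. Those most like Esrra were Dlst, a subunit of the 2-oxoglutarate dehydrogenase complex (r = 0.98), Stom, Fbxo21, Cyc1, a subunit of respiratory complex III, and Sod2 (all r = 0.97). Those most like Ppargc1a were Ncbp3 (0.95), Ncln (0.90), Synpo2l (0.90), Slc35e4 (0.89) and Bcas1 (0.89). Those most like Tfam were Hhex (0.93), Txnip (0.92), Gcsh, Dock4 and Exd2 (all 0.91). Each r is over 9 libraries that share their depth, fibre makeup and genotype with both genes, and the highest of the 10916 ranked, and is given as a description.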

How the data were processed

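The submitters' processing notes name HISAT2, featureCounts, DESeq2 and mm10. Versions, strand setting and annotation: not given in the sources used here. Per the labels' protocols, cDNA was made from an oligo(dT) primer with a SMARTer v4 kit and libraries with Nextera XT, with 3 mice per strain. The deposited values are a signal, reads per gene over a size factor of the library. All values (100%) were whole multiples of 1 step per library within 0.001, which recovered the reads, and columns without a sample numbered 0. P-values measure the spread between libraries only, and reads without molecular identifiers are not independent molecules.

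The main test was limma 3.58.1 (R 4.3.3) with a mean-variance trend on log2(value + 1), which understates changes of low genes, with all 9 libraries in 1 fit. Genes needed a value of 10 in 3 libraries. EdgeR 4.0.16, DESeq2 1.42.0, other pseudocounts, filters, scalings and variance models, a replicate block and leaving out each library were alternatives, and the alternatives for the target list were chosen after seeing the data. The limma step was tested on simulated data. Exon lengths, positions and overlaps came from GENCODE (GRCm38), promoters from RefSeq (GRCm38.p6). Python 3.11.15 and matplotlib 3.10.9 drew the figures.

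The members and lists were chosen with earlier results of these data known. Named were the 10 genes, up to 4 genes per pathway list with the smallest unadjusted p in a comparison, all marker genes and, for 3 members, the 5 genes of highest r. Cd36, and the genes overlapping members, were named outside this rule, Cd36 after its value was seen. The labels' replicate numbers did not pair samples (r of deviations between same-numbered libraries -0.056 to 0.044).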

Additional observations from a re-analysis of the deposited data

How the results depend on the processing

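None of the 10 genes passed the threshold under any of the 20 alternatives. The number of all genes called moved in Svil-KO against WT to 4 with DESeq2 (limma and edgeR 0, with 628 and 586 genes at an unadjusted p under 0.05, and 677 with DESeq2). In Svil-Mut against WT it was 6, and 19 with a pseudocount of 10, 16 with a mean of at least 50, 14 with only those genotypes in the fit and 172 with DESeq2. In Svil-KO against Svil-Mut it was 7, and 212 with DESeq2. Leaving out 1 library gave 4 to 18 genes in Svil-Mut against WT and 4 to 13 in Svil-KO against Svil-Mut. The cause of these differences was not tested.

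The sign of small log2 fold changes turned when 1 library was left out. In Svil-KO against WT the values ran over -0.076 to 0.15 for Pprc1, -0.18 to 0.16 for Esrrg, -0.13 to 0.073 for Nrf1, -0.22 to 0.095 for Ppargc1b, -0.13 to 0.72 for Esrrb, -0.037 to 0.24 for Ppargc1a and -0.0087 to 0.11 for Esrra. In Svil-Mut against WT they ran over -0.077 to 0.24 for Pprc1, -0.028 to 0.11 for Gabpa, -0.062 to 0.078 for Tfam and -0.23 to 0.053 for Ppargc1a. In Svil-KO against Svil-Mut they ran over -0.20 to 0.11 for Pprc1 and -0.053 to 0.31 for Ppargc1b. The unadjusted p stayed under 0.05 in 9 of 9 such fits for Gabpa in Svil-KO against WT (0.0047 to 0.0321), and for Esrra and Gabpa in Svil-KO against Svil-Mut. It did so in 8 of 9 for Esrrg and 6 of 9 for Esrra in Svil-Mut against WT, and in 6 of 9 for Esrrg and 7 of 9 for Perm1 in Svil-KO against Svil-Mut. Of the 9 fits of each comparison, 3 left out a library of the genotype outside it. Those fits kept the log2 fold change and altered only the estimate of the spread.

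With the replicate block, the log2 fold change of Gabpa in Svil-Mut against WT was -0.069 and that of Pprc1 in Svil-KO against Svil-Mut was 0.030, and no gene of the 10 was called. Same-numbered libraries share only a number.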
